A study of Mus musculus with 9 samples.

Results

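A set of 81 genes lay above the control level in C2C12 myoblasts kept in high glucose and below the control level when liraglutide was added to the high glucose. They are 81 of the 54307 genes of the expression table and 0.715% of the 11336 genes with a mean of at least 2 FPKM in the control group. FPKM are fragments scaled to gene length and to the mapped reads of the library. The genes were selected on y, the log2 of FPKM + 0.1. A gene was taken where its mean control level was 2 FPKM or more, its mean y in high glucose was over 0.3 above the control mean, its mean y with liraglutide was more than 0.4 below it, every liraglutide library lay below every control library, and every control library lay below every high glucose library. All 9 libraries and both differences from control were therefore used in the choice, so the values below describe these genes and are not tested.

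C2C12 is an established mouse myoblast line whose cells can fuse into myotubes. The control group (NC) is labelled only as control, and its glucose concentration is not given in the sources used here. The high glucose group (H) received 25 mmol/L glucose, and the third group (HL) received 25 mmol/L glucose with 200 nmol/L liraglutide, for 48 h. Each group had 3 libraries of mRNA, all from the same line, and the study describes independent repeats of its experiments in general. It does not say that each library had its own culture, so the spread between them may be technical. Liraglutide without high glucose was not analysed here.

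Liraglutide is a fatty-acid-linked peptide drug modelled on GLP-1 (glucagon-like peptide-1), a gut hormone. The GLP-1 receptor, which it activates, is coupled to Gs, which activates adenylyl cyclase and raises cAMP. cAMP acts through protein kinase A, through the exchange factors EPAC and through CREB-family transcription factors. In this cell line the receptor gene Glp1r was low, under 1 FPKM in every library. Every H value lay above every NC and HL value, a difference that was not tested. The level of Glp1r was 0.069, 0.069 and 0.120 FPKM in NC, 0.612, 0.536 and 0.518 FPKM in H and 0.124, 0.117 and 0.187 FPKM in HL, under the filter for testing of 1 FPKM in 3 libraries.

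The FPKM of a library summed to 649733 to 765681, lowest in the H libraries and highest in the NC libraries. Depth, estimated from the steps between low values, was 16.6 to 21.9 M reads, and mitochondrially encoded transcripts took 6.48% to 11.45% of the FPKM total. All 7 myoblast markers were detected above 1 FPKM, and their summed level was 448 to 462 FPKM in NC, 305 to 456 FPKM in H and 642 to 665 FPKM in HL. Of 16 macrophage markers 3 reached 1 FPKM, with a summed level of 6.01 to 7.72 FPKM in NC, 109 to 175 FPKM in H and 21.7 to 23.1 FPKM in HL, while Tyrobp, C1qa, C1qb and C1qc were listed at 0 in every library. The H sum rests mostly on the 3 markers that reached 1 FPKM and is not read as a share of macrophages. The 8 markers of differentiated muscle summed to 16.3 to 17.8 FPKM in NC, 10.1 to 14.8 FPKM in H and 34.5 to 41.3 FPKM in HL, and the 9 of fibroblasts and adipocytes to 691 to 711, 482 to 599 and 393 to 437 FPKM. The 9 endothelial and epithelial markers stayed at 6.25 FPKM or less in sum. None of the markers was among the 81 genes, and the part of these shifts in their levels was not tested. In bulk RNA, fewer cells of a type and less RNA per cell cannot be told apart.

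In H, the 81 genes were 1.25 to 29.8 times the NC mean, with a median of 1.75 times. In HL, they were at 33.1% to 75.7% of the NC mean, with a median of 65.2%. On the log2 scale the median difference from NC was 0.78 in H and -0.61 in HL, beside medians of -0.04 and -0.04 over the 13674 genes tested. The difference HL minus H thus had a median of -1.48 on the log2 scale. Many members were close to the limit of the rule in HL: 37 were less than 0.6 below NC, 27 were more than 0.7 below it and 7 were more than 1 below it.

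**Figure D1:**
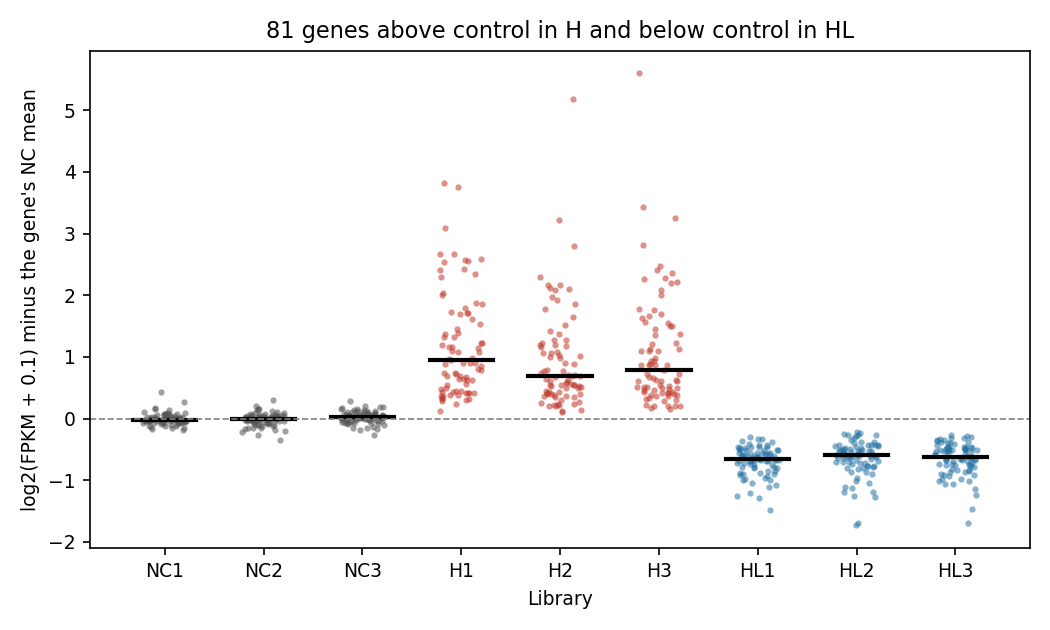
The plot shows, for each of the 9 libraries on the x axis, the log2(FPKM + 0.1) of each of the 81 genes minus its NC mean, with 1 point per gene and a black line at the median. The medians were 0.95, 0.69 and 0.78 in H1, H2 and H3, and -0.66, -0.59 and -0.63 in HL1, HL2 and HL3.

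The log2 rise was under 0.6 in 33 genes, over 1 in 32 and over 2 in 13. The drop in HL was larger than the rise in H in 34 genes. Across the H libraries, H1 held the highest value in 58 of the 81 genes, H2 in 12 and H3 in 11. H1 also had the highest FPKM total of the H libraries, at 683362 beside 668953 in H2 and 649733 in H3. The same count over all tested genes was not made, so a trait of the library was not tested. The median SD of log2 values was 0.20 in H, 0.12 in HL and 0.07 in NC for these genes, and 0.17, 0.09 and 0.07 for all tested genes.

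A call needed an adjusted p under 0.05 by limma and a log2 difference of more than 1 in size. By this measure, 32 of the 81 genes were called higher in H, where 10.3% of all tested genes were. In HL against NC, 7 were called lower, where 2.41% of all tested genes were. The rule used these same contrasts, so nothing is read from the 2 counts. It also leaves no member that could be lower in H or higher in HL, calls that were made for 5.75% and 6.3% of the tested genes. Both calls together were met by 5 members, Rap1gap2, Lgr6, Pla2g4a, Gm8300 and Stc1, of 10 such genes in the whole table.

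Few of the genes that were higher in H ended below control. With the same NC minimum, a log2 rise over 0.3 and no overlap between NC and H, 2208 genes were higher in H. Of these, 647 (29.3%) lay between NC and H in the HL libraries without touching either, 578 (26.2%) overlapped H only, 474 (21.5%) overlapped NC only, 73 overlapped both and 199 (9.01%) lay above every H library. The remaining 237 (10.7%) lay below every NC library, and the 81 genes are those among them that were more than 0.4 below NC. A further 9 genes met both fold limits but had an HL library that overlapped NC. Members made up 3.21% of the genes with a rise of 0.3 to 0.6, 2.4% of those with a rise of 0.6 to 1, 4.55% of those with a rise of 1 to 2, 13.3% of 75 genes with a rise of 2 to 3 and 14.3% of 21 genes with a larger rise. The last group rests on 3 members. The share with every HL library below every NC library had no such order, at 12.9%, 8.85%, 7.42%, 16% and 14.3%, and the median HL minus NC of all genes in these groups was 0.20, 0.38, 0.63, 0.66 and 1.59.

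**Figure D2:**
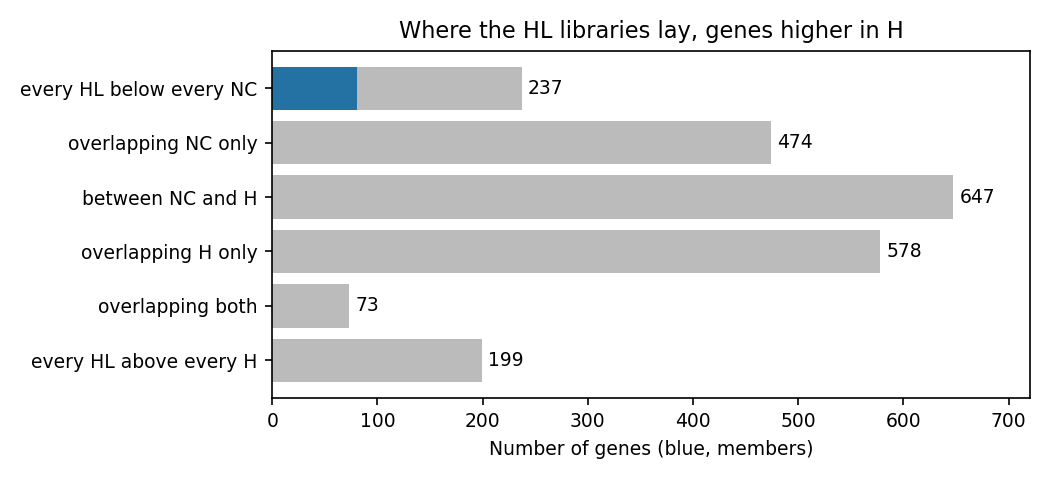
Bars give the number of genes, of the 2208 that were higher in H than in NC, by where their HL libraries lay, with the 81 members in blue. The largest class, of 647 genes, lay between NC and H, and 237 lay below every NC library.

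**Figure D3:**
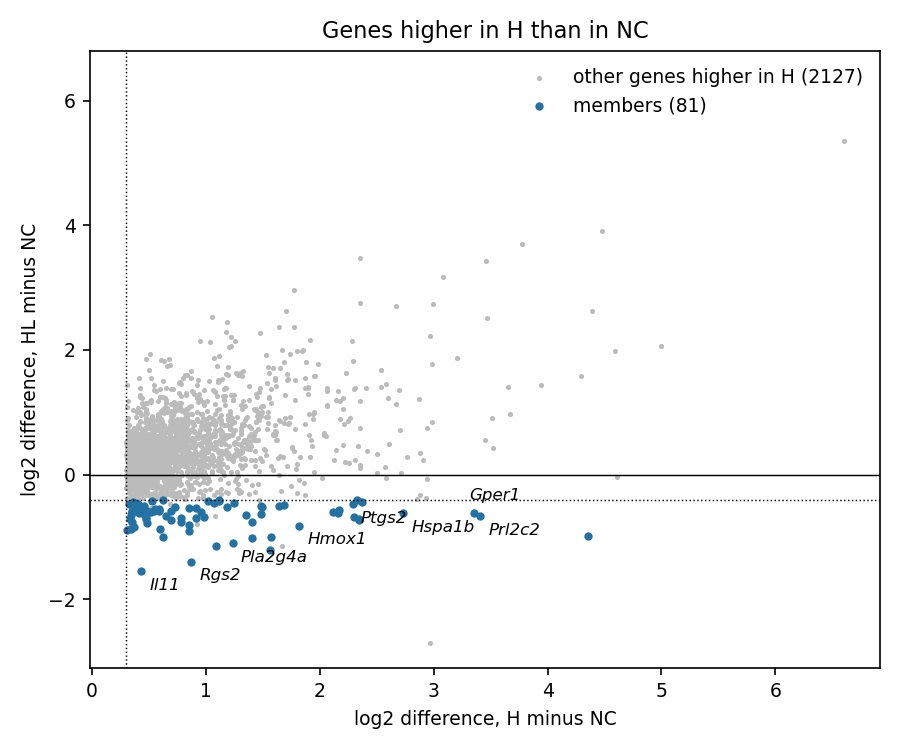
Each point is 1 of the 2208 genes higher in H, with the log2 difference H minus NC on the x axis and HL minus NC on the y axis, and dotted lines at the limits of 0.3 and -0.4. The 81 members in blue spread from a rise of 0.31 to 4.36 at drops of -0.40 to -1.55.

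Seen from the other side, 2207 genes were more than 0.4 below NC in HL with no overlap. Of these 1743 (79.0%) were also below every NC library in H, 363 (16.4%) overlapped NC in H and 101 (4.58%) were above every NC library in H. The mirrored pattern, below control in H by over 0.3 and above control in HL by over 0.4 with no overlap, was met by 61 genes, among them Des, the muscle intermediate filament desmin. Des was at 253 ± 9.37 FPKM in NC, 191 ± 45.2 FPKM in H and 369 ± 4.89 FPKM in HL (mean ± SD, n = 3). Of the other myoblast genes, Cdh15, or M-cadherin, was 0.88 below NC on the log2 scale in H (limma, adjusted p = 0.000414) and 0.39 above it in HL (adjusted p = 0.0399), neither past the fold threshold of 1. Myf5 was called higher in HL, by 1.502 on the log2 scale (limma, adjusted p = 9.71e-06). Myod1 was called lower in H, at -1.29 (adjusted p = 0.0059), and was at -0.47 in HL (adjusted p = 0.247).

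The members include several ligands, a group made after the values were seen and not tested. Il11 (ENSMUSG00000004371.16) encodes interleukin-11, a cytokine of the IL-6 family. It was at 4.61, 4.54 and 4.99 FPKM in NC, 6.95, 5.49 and 6.78 FPKM in H, and 1.91, 1.39 and 1.39 FPKM in HL. Its rise was small, at 1.36 times NC, while its HL level of 33.1% of NC was the lowest of the 81 genes. Ereg, which encodes the EGF receptor ligand epiregulin, had a larger rise. It was at 26.7, 26.01 and 28.03 FPKM in NC, 98.0, 76.9 and 79.1 FPKM in H, and 19.3, 19.1 and 18.2 FPKM in HL. The 3 HL values of Ereg were thus close together and all below the lowest NC value.

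Bdnf encodes the neurotrophin BDNF, which signals through TrkB. It was at 12.4 ± 0.461 FPKM in NC, 20.6 ± 2.49 FPKM in H and 8.55 ± 0.399 FPKM in HL. Stc1 encodes stanniocalcin-1, a secreted glycoprotein whose gene is known to respond to hypoxia. It was at 15.96, 16.5 and 16.9 FPKM in NC, 54.2, 44.3 and 48.9 FPKM in H, and 8.28, 8.37 and 7.85 FPKM in HL. Stc1 thus went from 2.99 times control to 49.7% of control. Tnfsf9, the ligand of the costimulatory receptor 4-1BB, was at 8.27 ± 0.248 FPKM in NC, 23.9 ± 6.604 FPKM in H and 5.28 ± 0.204 FPKM in HL, with H2 at 16.3 FPKM below H1 and H3 at 27.3 and 28.2 FPKM.

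Prl2c2, a placental prolactin family gene that is also known as proliferin, had one of the largest rises and the highest H level of the 81 genes. It was at 193, 195 and 206 FPKM in NC, 2663, 1837 and 1885 FPKM in H, and 122.8, 130 and 122 FPKM in HL. Its H mean was 10.8 times NC and its HL mean 63.1% of NC. Prl2c3, its near copy, was just outside the limit in HL, with NC values of 168, 169 and 174 FPKM, H values of 1540.1, 1012 and 1200.9 FPKM and HL values of 126, 135 and 129 FPKM. Reads of these copies may be split or shared by the counting, so the values of each are uncertain. Prl2c5, the other tested gene of the placental prolactin list, did not drop below control. It was 3.94 above NC in H and 1.44 above NC in HL on the log2 scale.

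Both members of the prostaglandin list act at its first steps. Pla2g4a encodes cytosolic phospholipase A2, which frees arachidonic acid, and Ptgs2 encodes cyclooxygenase-2, which turns it into prostaglandin H2. Pla2g4a was at 23.0, 24.0 and 23.8 FPKM in NC, 59.3, 52.9 and 54.8 FPKM in H, and 11.4, 10.3 and 11.3 FPKM in HL. Ptgs2 was at 79.8, 80.7 and 84.5 FPKM in NC, 438, 346 and 418 FPKM in H, and 61.5, 53.5 and 62.4 FPKM in HL. Ptgs2 thus went from 4.91 times control to 72.4% of it, and Pla2g4a from 2.36 times to 46.6%.

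The other 16 tested genes of the prostaglandin list went in several directions. By limma, 4 were called higher and 3 lower in H, and 3 higher and 2 lower in HL against NC. The highest and the lowest of them in HL were both enzymes. Ptges, the prostaglandin E synthase that acts after cyclooxygenase, was higher in HL by 1.75 on the log2 scale (limma, adjusted p = 9.31e-05). Hpgd, which breaks prostaglandins down, was lower at -2.43 (limma, adjusted p = 0.00037), at 0.122 to 0.228 FPKM in HL, and with a pseudocount of 1 it was at -0.98 and no longer past the fold threshold. The median of these 16 genes was -0.23 in H and -0.21 in HL. With the 2 members, which were chosen for being low in HL, it was -0.22 and -0.47. Ptgis and Alox5, among the other 16 genes, had the mirrored pattern. On the log2 scale they were at -0.508 and -1.055 in H and at 0.586 and 0.446 in HL.

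**Figure D4:**
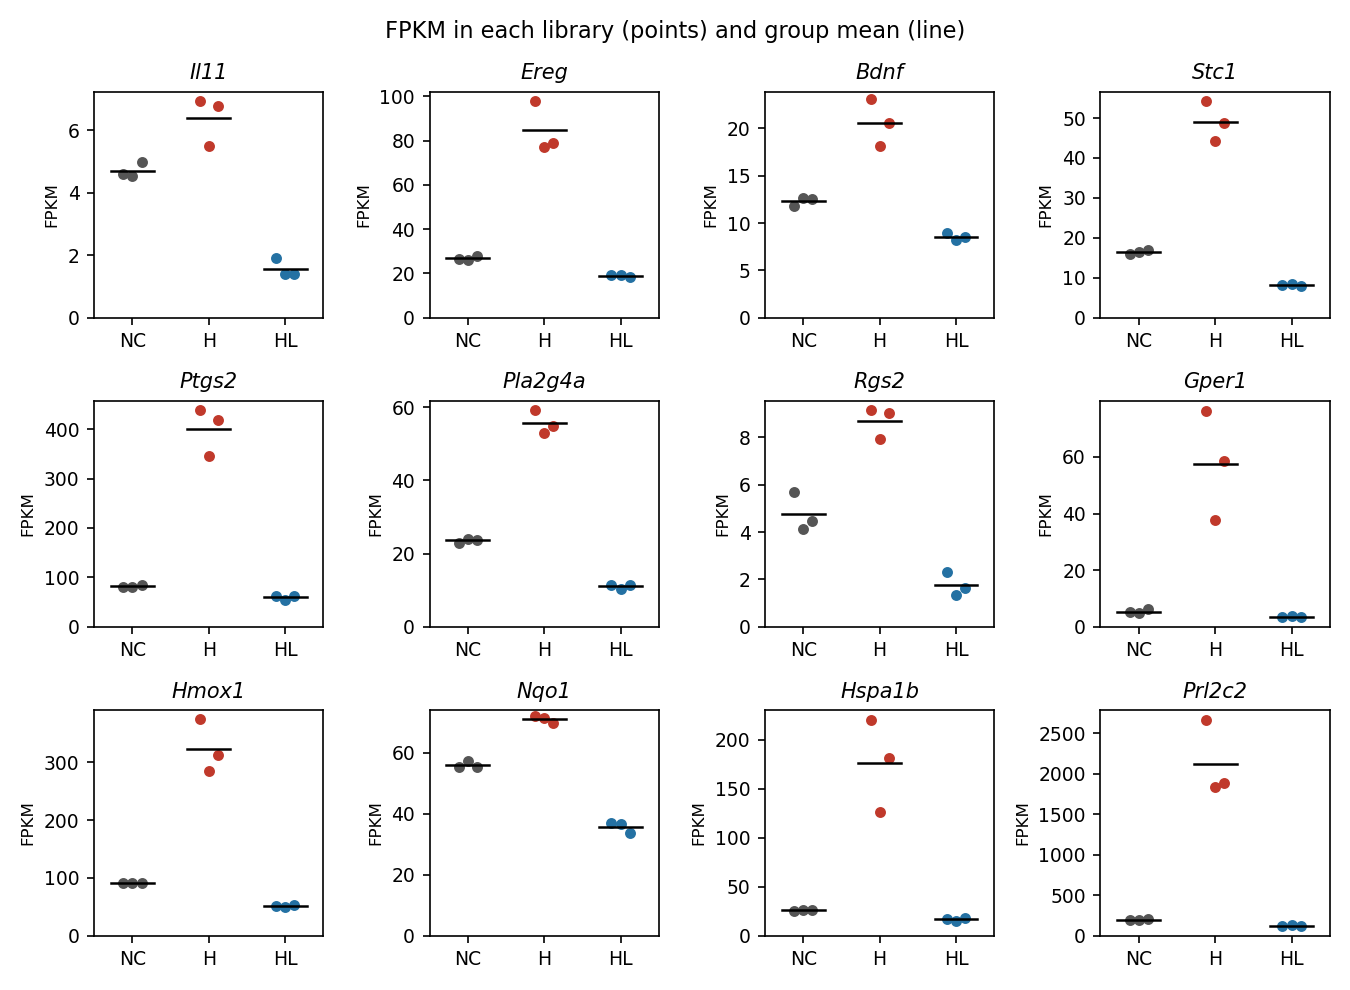
Each panel gives the FPKM of 1 member in the 3 NC, 3 H and 3 HL libraries (points) with the group mean (line), on a linear axis from 0. In all 12 panels the HL points lie below the NC points and the H points above them, for example 51.5 FPKM in HL, 90.9 FPKM in NC and 323 FPKM in H for Hmox1.

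Several members encode receptors coupled to G proteins or proteins that act on their signals, a group also made after the values were seen. Rgs2 encodes a GTPase-activating protein that turns off G alpha subunits, mainly Gq. It was at 5.69, 4.11 and 4.45 FPKM in NC, 9.15, 7.93 and 9.05 FPKM in H, and 2.32, 1.35 and 1.64 FPKM in HL. NC1 was the highest NC value of Rgs2, and the HL mean was 37.2% of the NC mean. Rap1gap2 encodes a GTPase-activating protein for Rap1. It was at 5.42, 5.53 and 5.88 FPKM in NC, 18.7, 13.7 and 18.3 FPKM in H, and 2.38, 2.40 and 2.33 FPKM in HL.

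Lgr6 encodes a receptor for R-spondins that strengthens Wnt signaling. It was at 8.04 ± 0.812 FPKM in NC, 17.2 ± 1.18 FPKM in H and 3.62 ± 0.646 FPKM in HL. Ramp3, a partner of the calcitonin-like receptor that sets its ligand, was at 11.5 ± 0.341 FPKM in NC, 17.99 ± 3.205 FPKM in H and 5.79 ± 0.937 FPKM in HL. Gpr39, a receptor that responds to zinc, had a small rise to 1.28 times NC and an HL mean of 54.3% of NC. Gper1, a receptor described to bind estrogen, had a large one. Gper1 was at 5.04, 4.89 and 6.11 FPKM in NC, 76.2, 37.7 and 58.7 FPKM in H, and 3.32, 3.72 and 3.29 FPKM in HL. The H values of Gper1 varied widely between libraries, and its lowest H value was still above every NC value.

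Crem and Rapgef3 belong to the list for the GLP-1 receptor, cAMP signaling and CREB targets. Crem encodes cAMP-responsive element modulator, which includes the early repressor ICER. It was at 27.4, 24.5 and 27.1 FPKM in NC, 72.2, 54.9 and 61.9 FPKM in H, and 18.9, 19.6 and 19.1 FPKM in HL. Rapgef3, which encodes the cAMP sensor EPAC1, was at 4.58 ± 0.476 FPKM in NC, 6.62 ± 0.451 FPKM in H and 3.40 ± 0.512 FPKM in HL. The gap between the lowest NC and the highest HL value of Rapgef3 was only 0.11 on the log2 scale.

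Of the other 29 tested genes of this cAMP list, limma called 2 higher and 2 lower in H and 3 higher and 2 lower in HL. Ppargc1a, the coactivator PGC-1 alpha, was the highest of them in HL, with a log2 difference of 2.56 from NC (limma, adjusted p = 8.67e-05). Its values were 0.176 to 0.214 FPKM in NC, 2.08 to 4.04 FPKM in H and 1.54 to 1.80 FPKM in HL. Adcy3, an adenylyl cyclase, was the lowest at -1.30 (adjusted p = 0.0295), a call that was lost without HL2, HL3, NC1 or NC3 at limma adjusted p values of 0.0804 to 0.0983, with no filter at 0.0628 and, by its fold of -0.73, with a pseudocount of 1. The median of these 29 genes was -0.06 in H and 0.02 in HL, beside -0.04 and -0.04 over all tested genes.

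Another 3 members with known parts in these signals were picked after their values were seen. Pde1a and Pde8b encode phosphodiesterases that break down cyclic nucleotides, and Htr1b encodes a serotonin receptor coupled to Gi. Their HL means were 58.0%, 74.2% and 66.6% of NC, and their H means were 1.41, 2.07 and 1.52 times NC. The tested phosphodiesterase genes of the cAMP list lay on both sides of NC in HL. On the log2 scale Pde8a, Pde10a, Pde7a and Pde4a were at 1.086, 0.615, 0.478 and 0.077. Pde3a, Pde4b, Pde4d and Pde3b were at -1.084, -0.570, -0.227 and -0.139. Pde7a, at -0.586 in H, had the mirrored pattern. No test of this grouping was made.

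The list of NRF2 targets and heme breakdown held the most members, with 4 of its 29 tested genes. NRF2 is a transcription factor that is stabilized under oxidative or electrophile stress. Hmox1 encodes heme oxygenase-1, which opens the heme ring. It was at 90.9, 90.3 and 91.5 FPKM in NC, 374, 284 and 312 FPKM in H, and 51.9, 49.9 and 52.8 FPKM in HL. The NC and HL values were each within a narrow band, and the HL mean was 56.7% of the NC mean after 3.56 times in H.

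Nqo1, an NAD(P)H quinone reductase, and Slc48a1, a heme transporter, had small rises. Nqo1 was at 55.5, 57.3 and 55.4 FPKM in NC, 72.1, 71.5 and 69.7 FPKM in H, and 36.8, 36.6 and 33.7 FPKM in HL. Slc48a1 was at 133 ± 3.99 FPKM in NC, 171 ± 3.68 FPKM in H and 89.0 ± 3.81 FPKM in HL. Abcc4, which exports organic anions including cyclic nucleotides and prostaglandins, was at 10.8 ± 0.435 FPKM in NC, 23.6 ± 1.83 FPKM in H and 8.17 ± 0.505 FPKM in HL. Abcc4 was therefore only just past the limit in HL, at -0.40 on the log2 scale.

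None of the 4 members of the NRF2 list was past the fold threshold in HL. Of the other 25 tested genes, limma called none higher and none lower in H against NC, with 9 higher and 5 lower at an unadjusted p under 0.05. In HL against NC it called none higher and 1 lower, with 4 higher and 10 lower at an unadjusted p under 0.05. That 1 gene was Gclm, the modifier subunit of the enzyme that starts glutathione synthesis, at 56.8, 54.1 and 56.1 FPKM in NC, 74.98, 56.6 and 63.9 FPKM in H and 28.6, 25.8 and 24.6 FPKM in HL. Gclm was lower in HL by -1.08 on the log2 scale (limma, adjusted p = 4.64e-05), and at -0.98 after rescaling to TPM it no longer passed the fold threshold. Aox1, an aldehyde oxidase, was the highest in HL at 0.998, just under the fold threshold (limma, adjusted p = 0.00157), and passed it under 7 of the alternatives. Counts at an unadjusted p under 0.05, here and below, have a high background. By limma adjusted p alone, 3711 of the 13674 tested genes were higher and 4513 lower in H. In HL, 2957 were higher and 3717 lower. The counts of a list were not tested against this background.

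**Figure D5:**
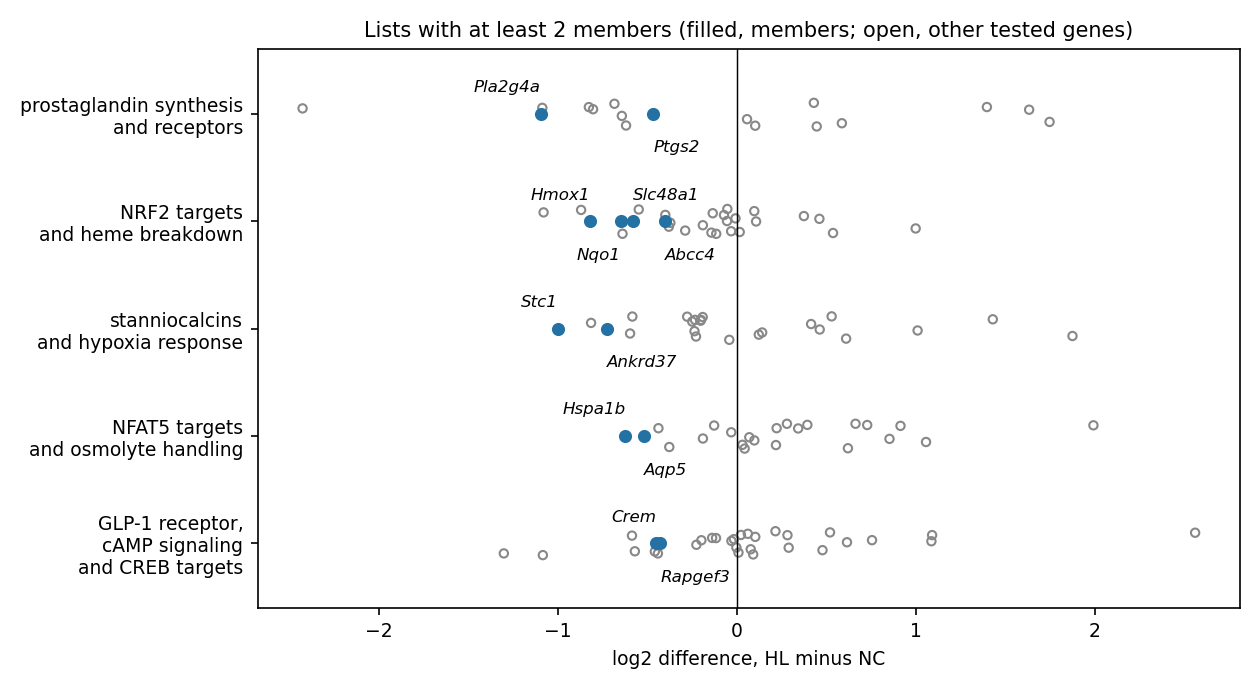
Rows are the 5 lists with at least 2 members, and the x axis is the log2 difference HL minus NC. Filled points are members and open points are the other tested genes of the list, which lie on both sides of 0 in every row.

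Stc1 shares the list of stanniocalcins and hypoxia response with Ankrd37, an ankyrin repeat gene known as a target of hypoxia-inducible factor. Ankrd37 was at 8.51, 5.89 and 8.59 FPKM in NC, 14.2, 9.35 and 13.9 FPKM in H, and 4.12, 5.76 and 3.91 FPKM in HL. The second library of each group stood apart in this gene, and the highest HL value lay only 0.03 on the log2 scale below the lowest NC value, the smallest such gap of the 81 genes. Of the other 21 tested genes, limma called 2 higher and 1 lower in H and 3 higher and 0 lower in HL, with 8 higher and 8 lower in HL at an unadjusted p under 0.05. Car9, a carbonic anhydrase that is a standard hypoxia marker, was higher in HL at a log2 difference of 1.87 (limma, adjusted p = 0.000375). Adm, or adrenomedullin, was the lowest at -0.81 (limma, adjusted p = 0.0499), and without NC1 it was at -1.05 (adjusted p = 0.026) and called.

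Aqp5 and Hspa1b belong to the list of NFAT5 targets and osmolyte handling, NFAT5 being the factor that responds to high salt or sugar outside the cell. Aqp5 encodes a water channel and was at 169, 183 and 181 FPKM in NC, 466, 362 and 387 FPKM in H, and 115, 127 and 129 FPKM in HL. Hspa1b encodes an inducible HSP70 and was at 25.0, 26.2 and 26.1 FPKM in NC, 220, 126 and 182 FPKM in H, and 16.8, 15.1 and 18.3 FPKM in HL. Hspa1b has a near-identical neighbour, so its reads may be shared. Of the other 21 tested genes of the list, limma called 11 higher and none lower in H, with 16 higher and 4 lower at an unadjusted p under 0.05, and 1 higher and none lower in HL, with 9 higher and 2 lower at an unadjusted p under 0.05.

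The gene of that list with the highest HL level relative to NC was Atp1b1, a subunit of the sodium pump. It was at 3.03 to 3.82 FPKM in NC, 69.1 to 110 FPKM in H and 13.3 to 14.3 FPKM in HL, a log2 difference of 1.99 in HL (limma, adjusted p = 2.12e-05). S100a4, a calcium-binding protein, was the lowest of the others at -0.44 (adjusted p = 0.000987). In H, S100a4 was at -0.38, so it was below control in both groups.

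Among members that belong to a list alone, Mmp13 encodes a collagenase that cuts fibrillar collagen. It was at 7.23, 7.12 and 7.41 FPKM in NC, 7.94, 12.4 and 8.38 FPKM in H, and 3.65, 4.08 and 4.28 FPKM in HL. Its rise rested mostly on H2, while all HL values were well below NC. Lats2, a kinase of the Hippo pathway, was at 12.8 ± 0.395 FPKM in NC, 17.8 ± 0.812 FPKM in H and 7.93 ± 0.132 FPKM in HL. Arc, an immediate early gene best known from neurons, was at 4.33 ± 0.246 FPKM in NC, 12.6 ± 3.52 FPKM in H and 3.03 ± 0.208 FPKM in HL. Gadd45b, a stress-induced gene, and Slc7a6, a transporter of basic and neutral amino acids, reached 1.28 and 1.39 times NC in H and 73.4% and 70.5% of NC in HL.

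In all, 23 of the 81 genes (28.4%) were in at least 1 of the 49 lists, beside 8.12% of the genes with an NC mean of at least 2 FPKM. The lists were drawn up with results of these data in view, so the difference is no evidence for a theme. A member was found in 17 lists, and 5 held more than 1. Hspa1b was also in the list of heat shock proteins and chaperones. Of the other 24 tested genes there, limma called 4 higher and 2 lower in H, and none in HL. No member was in the lists for E2F targets of DNA replication, mitosis, the sarcomere or myogenic factors. In H, limma called all 25 tested mitosis genes and 26 of the 32 tested E2F targets lower, and such genes could not meet the rule. In HL it called 12 of 24 tested sarcomere genes and 6 of 17 tested myogenic genes higher. Members were 0.592% of all tested genes, so their absence from these lists is not read as a result.

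The member with the highest control level was Esd, or esterase D. It was at 1086, 1101 and 1103 FPKM in NC, 1458, 1297 and 1451 FPKM in H, and 734, 717 and 716 FPKM in HL. Ilf2, which encodes an RNA-binding protein of the NF45 and NF90 complex, was at 96.1 ± 0.909 FPKM in NC, 176 ± 37.9 FPKM in H and 66.5 ± 3.89 FPKM in HL. The mitochondrial 16S ribosomal RNA mt-Rnr2 was at 340 ± 10.6 FPKM in NC, 656 ± 166 FPKM in H and 235 ± 15.0 FPKM in HL, with H2 at 825 FPKM above H1 at 494 FPKM. The enrichment of mRNA removes most ribosomal RNA, and the part of that step was not tested. Of the other 14 tested mitochondrially encoded genes, limma called none in H or in HL, with 2 higher and 0 lower in H and 7 higher and 0 lower in HL at an unadjusted p under 0.05. Their median was 0.31 in HL, on the other side of 0 from mt-Rnr2.

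By GENCODE M21, 67 of the 81 genes (82.7%) code for proteins, beside 93.6% of the genes with an NC mean of at least 2 FPKM. A further 4 are antisense RNAs, 3 are processed transcripts, 2 are processed pseudogenes and 2 are lincRNAs, with 1 gene each of 2 other classes and 1 gene that this release does not hold. The gene without an entry, ENSMUSG00002076161, had no symbol. It was at 13.1, 14.3 and 10.3 FPKM in NC, 61.4, 453 and 607 FPKM in H, and 4.40, 5.71 and 9.74 FPKM in HL. H1 was far below H2 and H3, so its mean of 29.8 times NC, the largest rise of the 81 genes, is poorly determined.

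Of the 8 largest rises, 4 were in genes with only a clone name. Gm4027 reached 5.16 times NC in H, the pseudogene AC124237.1 5.21 times, Gm48271 5.26 times and 1700012B09Rik 5.10 times, and their HL means were 60.5%, 59.6%, 73.7% and 75.7% of NC. Gm8300 was at 6.92, 7.27 and 7.51 FPKM in NC, 22.3, 17.0 and 18.9 FPKM in H, and 3.84, 3.26 and 3.55 FPKM in HL. Gm8332 was at 84.6 ± 11.4 FPKM in NC, 127 ± 10.8 FPKM in H and 46.2 ± 6.55 FPKM in HL. Whether other copies of these genes share their reads was not tested.

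In GENCODE M21, the span of 22 of the 81 genes, introns included, overlaps another gene that reached 1 FPKM in a library, for 17 of them on the opposite strand, and the counting is not stated to have used strand. Of 23 such pairs, the overlapping gene was above NC in H and below NC in HL in 5. Gm28809, an antisense RNA of Cd9, was at 0.78 in H and -0.75 in HL on the log2 scale, while Cd9, which reached 676 FPKM, was at 0.76 and 0.12. Ankrd37 overlaps Ufsp2, which was at -0.54 in H and -0.27 in HL. Gpr39 overlaps Lypd1, which was at -1.70 and -2.81. Gm47738 overlaps Gm47739, which was at 2.29 in H and -0.39 in HL, beside 2.16 and -0.62 for Gm47738 itself, and A230050P20Rik overlaps Angptl6, which was at 0.33 and -0.58. Reads of overlapping genes cannot be told apart without strand.

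Cab39l encodes a scaffold protein of the LKB1 kinase complex, which activates AMPK. It was at 26.9, 28.2 and 26.9 FPKM in NC, 57.6, 41.6 and 50.1 FPKM in H, and 13.0, 15.0 and 15.9 FPKM in HL. Its HL mean was 53.5% of NC. Foxf2, Foxl1 and Hoxc11, transcription factors named here after their values were seen, had HL means of 71.2%, 65.2% and 67.0% of NC and H means of 3.29, 1.64 and 1.49 times NC.

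At the limits of the rule the members lay close to the genes just outside. In H, the lowest members were Zswim6, Chst1 and Kctd7, with log2 rises of 0.31, 0.32 and 0.33, and the nearest genes that met all else were Pfkfb3, Herpud1 and Arf2. Herpud1, a gene of the endoplasmic reticulum stress response, was at 40.0, 41.2 and 41.1 FPKM in NC, 46.4, 55.1 and 48.4 FPKM in H, and 24.9, 24.6 and 22.3 FPKM in HL. In HL, the members nearest the limit were Zfp213, Abcc4 and 1700012B09Rik, and the nearest outside were Msh3, Mtmr2 and Prl2c3. Msh3, a mismatch repair gene, was at 9.46 FPKM in NC on average and at 7.32, 7.92 and 6.34 FPKM in HL. Without the 2 fold limits, 357 genes had this order of the libraries: 156 of them failed only the limit in HL, 20 only the limit in H and 100 both.

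The libraries differ in their FPKM totals, and this touches the drop in HL. After rescaling each library to 1 common total (TPM), the median of all tested genes moved from -0.04 to 0.05 in HL and from -0.04 to 0.15 in H. The 81 genes then had medians of -0.52 in HL and 0.97 in H, 78 of them kept every HL library below every NC library, and all 81 kept every H library above. The count for H was fixed in advance. Every H library had a lower FPKM total than every NC library, so the rescaling could only raise H relative to NC. The rule met by 81 genes on FPKM was met by 108 genes on TPM, of which 64 were shared. Across the scalings and with each library left out in turn, 54 of the 81 genes met the rule every time, among them Il11, Hmox1, Nqo1, Stc1, Pla2g4a, Ereg, Bdnf, Hspa1b and Prl2c2. The other 27 failed it under at least 1 of these choices, among them Ptgs2, Crem, Rapgef3, Abcc4, Mmp13, Gpr39, Gadd45b, Ankrd37, Foxf2, Pde8b and ENSMUSG00002076161.

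For 26 members with 1 annotated transcript, the reads behind the lowest HL value were estimated as 21.4 or more, with a median of 146, and 12 of them had fewer than 100. Tnfsf9 had about 91.6 reads and Ereg about 1190. These are estimates from the steps of the FPKM, and they cover counting error only.

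Promoter sequences were looked up for letters that transcription factors bind. RefSeq windows of build GRCm38.p6, from 250 bases before to 50 after a start site, were found for 56 of the 81 genes (82 windows, since a gene can have several starts). Their G + C share had a median of 58.7%, beside 61.0% in 11036 windows of genes with an NC mean of at least 2 FPKM and 52.7% in all 32851 windows, and their CpG number had medians of 13, 21 and 7. The AP-1 element was searched in a loose form, TGANTCA with any middle base, on both strands. This form was found in 6 of the 82 windows (7.32%), beside 5.1% and 7.81%. The middle base was G or C in Il11, Gpr39 and Mmp13. It was A or T in Bdnf, 1700012B09Rik and Fam110c. A form limited to G or C was not counted in the other windows. The stretches below hold TGANTCA before the start of 4 members that the results above describe. They are examples, picked because Il11 had the deepest drop of the 81 genes. The share of 7.32% lay between 5.1% and 7.81%, and a link of the element to the drop was not tested. The element is in capitals, with 25 bases to each side in lower case, 5′ to 3′ on the strand of the gene.

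Il11, chr7:4778208-4778264, minus strand, element from 98 bases before the start: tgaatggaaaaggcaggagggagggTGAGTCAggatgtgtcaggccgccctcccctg
Mmp13, chr9:7272454-7272510, plus strand, element from 35 bases before the start: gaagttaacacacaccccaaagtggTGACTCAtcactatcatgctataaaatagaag
Gpr39, chr1:125676838-125676894, plus strand, element from 133 bases before the start: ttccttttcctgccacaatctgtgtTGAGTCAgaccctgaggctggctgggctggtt
Bdnf, chr2:109676855-109676911, plus strand, element from 152 bases before 1 of its starts: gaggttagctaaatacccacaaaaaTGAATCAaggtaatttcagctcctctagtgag

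The shares of the other motifs are given in the same order. The full cAMP element TGACGTCA was in none of the 82 windows, beside 3.18% of the windows of genes with an NC mean of at least 2 FPKM and 1.79% of all windows, and its core TGACG, which is contained in it, was in 24.4%, beside 32% and 20.8%. The antioxidant response element TGACNNNGC was in 12.2%, beside 14.3% and 12.4%, and of the NRF2 list members only Abcc4 had it. Nqo1 had a window without it, and Hmox1 and Slc48a1 had no window. The shares were 2.44% beside 2.19% and 3.97% for the ATF4 element TGATGNAA, and 7.32% beside 10.1% and 7.15% for the E-box CACGTG. The hypoxia core ACGTG, which lies within the E-box, was in 25.6% beside 25.9% and 19.6%, and its other form GCGTG in 40.2% beside 51.9% and 32.4%. The TEAD element GGAATG was in 14.6% beside 11.8% and 14.7%, and the TATA box TATAAA in 9.76% beside 6.96% and 13.6%. The CArG box was in 1.22% beside 1.3% and 1.63%, the NF-kB site in 3.66% beside 5.05% and 4.51%, and TonE, the element of NFAT5, in 4.88% beside 3.62% and 4.96%. A match is a run of letters and not a measured site, and a window without one says nothing about the factor.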

How the data were processed

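RNA of 3 NC, 3 H and 3 HL samples of C2C12 cells was sequenced on an Illumina HiSeq. Per the labels, the authors used HISAT2 (version 2.1.0) for alignment, StringTie (version 1.3.3b) for quantification and the mm39 build. Other descriptions of this step name another genome or quantifier, so no coordinates in the build of the files are given. The authors deposited FPKM for 54307 genes, 51482 with a symbol. FPKM are not counts, so no count model was used.

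Members were found on log2(FPKM + 0.1). The members, the gene lists and the rule for named genes were chosen with earlier results of these data known. That rule takes the 12 deepest drops, the 8 largest rises, the 8 highest NC levels, list members, the genes at each limit, the extremes of lists with 2 or more members, and 5 control genes. limma (version 3.58.1, statmod 1.5.0, R 4.3.3; trend and robust) was fitted to 9 libraries and 13674 genes that reached 1 FPKM in 3 or more libraries, with 6 residual degrees of freedom and Benjamini-Hochberg adjustment, and was tested on simulated data. Depth came from low values of genes with 1 transcript, of which 56.2% to 65.5% were within 0.1 of a whole read. Python 3.11.15 was used. Libraries with the same number shared little of their deviation (r = -0.037 to 0.091). Between NC and H, r was 0.046 to 0.091, and each library correlated best with the one of the same number. In the other group pairs this held only for NC3 with HL3. Gene classes are from GENCODE M21, and promoters from RefSeq (GRCm38.p6). The alternatives were other pseudocounts, filters, scalings, fits and thresholds, a replicate block, and leaving out each library.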

Additional observations from a re-analysis of the deposited data

How the results depend on the processing

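The rule was met by 161 genes with no minimum on the NC mean and by 357 with no fold limits, and by 61 to 108 genes under the other choices, with 82 to 97 when 1 library was left out. Among the 43 named members, 559 values of HL minus NC under the alternatives held 25 that moved by more than the spread between libraries, all with a pseudocount of 1 or on TPM, and none that changed sign. The rule had placed every HL library below every NC library, so only rescaling to TPM or centring could have changed a sign. Nothing is read from the signs under the other alternatives. For all tested genes, H against NC gave 1402 genes called higher, and 517 with a mean FPKM of at least 5, 2711 with no filter and 3711 by adjusted p alone. It gave 786 lower, and 4513 by adjusted p alone. HL against NC gave 862 higher, and 306 with a mean FPKM of at least 5, 446 with a pseudocount of 1 and 2957 by adjusted p alone. It gave 330 lower, and 150, 198 and 3717 under those choices and 622 with no filter. These changes follow from the genes tested, the scale or the threshold. On TPM the H calls were 1783 higher and 538 lower, so 76.8% were higher in place of 64.1%. A replicate block gave 1402, 794, 848 and 332 calls, and whether the shared numbers pair samples is not stated. The depth is an estimate, and drops near -0.4 in genes of a few FPKM rest on few reads.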
